A study of Homo sapiens with 4 samples.

Results

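The S-phase human tumour parts were 174 of the 1013 kept human parts in single-cell RNA libraries of PANC-1 xenografts. A human part is the set of human-gene UMIs (unique molecular identifiers, each counting 1 captured RNA molecule) of 1 barcode, and it was kept when it reached 500 UMIs and 250 genes and no more than 25% of its UMIs were mitochondrial. A kept part was a member when 11 S-phase genes together made up at least 0.1% of its human UMIs and 5 mitotic genes together made up under 0.15%. The S-phase genes were PCNA, MCM3, MCM4, MCM5, MCM6, UHRF1, HELLS, CLSPN, GINS2, TYMS and RRM2, and the mitotic genes were MKI67, TOP2A, CENPF, CCNB1 and CDK1. The remaining kept parts were 159 mitotic parts, at or over the mitotic limit, and 680 non-cycling parts, under both limits. The members were 49 parts of 283 in the agrimoniin library, 60 of 292 in the erlotinib library, 43 of 245 in the combination library and 22 of 193 in the control library.

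PANC-1 is an established human pancreatic ductal adenocarcinoma cell line, grown here as tumours under the skin of nude mice, which lack a thymus and so most T cells but keep macrophages, fibroblasts and vessels. The tumours had been given agrimoniin (a plant ellagitannin), erlotinib (a drug that blocks the kinase of EGFR), both drugs, or the control treatment, and each treatment had 1 library. The labels give neither doses, times nor numbers of mice, and the study's design text names "cyranin" in the place where the sample labels give erlotinib, so the sample labels were followed. With 1 library per treatment nothing measures the spread between tumours, and intervals here cover counting error only.

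In S phase a cell copies its genome once. Replication origins are licensed in G1 by loading the MCM helicase. The E2F transcription factors then switch on the genes for helicase activators, polymerases, nucleotide supply and the S-phase cyclins, histones are made to package the new DNA, and checkpoint kinases and recombination proteins guard stalled forks. Many of these genes carry E2F sites close to their start, and repressor complexes hold the sites silent in resting cells.

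The bases before the start of 7 genes are shown because 3 genes of the rule (PCNA, MCM6 and UHRF1) and 3 genes called higher outside it (CDC25A, DTL and RBL1) hold a short E2F sequence there, while the arrest gene CCNG2, which was lower, has none in the same window. They were picked for these letters, and not every gene of the rule or called gene holds them. Each line gives the 160 bases before the RefSeq transcription start on the gene's own strand, build GRCh38.p14, and capitals mark the E2F letters TTTCCCGC, TTTCGCGC, TTTGCCGC or TTTGGCGC read on either strand. The windows are chr20:5126623-5126782 for PCNA (minus strand), chr2:135876444-135876603 for MCM6 (minus), chr19:4909341-4909500 for UHRF1 (plus), chr3:48188418-48188577 for CDC25A (minus), chr1:212035588-212035747 for DTL (plus), chr20:37095998-37096157 for RBL1 (minus) and chr4:77157047-77157206 for CCNG2 (plus).
PCNA: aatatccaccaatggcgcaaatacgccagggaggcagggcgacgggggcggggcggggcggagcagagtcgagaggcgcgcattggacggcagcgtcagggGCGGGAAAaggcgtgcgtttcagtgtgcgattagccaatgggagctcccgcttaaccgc
MCM6: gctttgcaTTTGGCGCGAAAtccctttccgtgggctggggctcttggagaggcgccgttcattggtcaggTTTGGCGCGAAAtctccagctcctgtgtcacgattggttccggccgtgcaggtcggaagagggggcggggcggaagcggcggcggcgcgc
UHRF1: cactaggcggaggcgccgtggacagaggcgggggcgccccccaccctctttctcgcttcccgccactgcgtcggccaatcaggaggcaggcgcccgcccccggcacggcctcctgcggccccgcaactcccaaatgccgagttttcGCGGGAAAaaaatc
CDC25A: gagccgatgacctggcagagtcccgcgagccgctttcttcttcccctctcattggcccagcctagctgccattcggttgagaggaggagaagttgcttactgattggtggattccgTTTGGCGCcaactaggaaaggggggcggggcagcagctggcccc
DTL: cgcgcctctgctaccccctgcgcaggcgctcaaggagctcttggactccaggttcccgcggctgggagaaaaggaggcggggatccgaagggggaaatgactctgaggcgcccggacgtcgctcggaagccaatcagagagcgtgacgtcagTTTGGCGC
RBL1: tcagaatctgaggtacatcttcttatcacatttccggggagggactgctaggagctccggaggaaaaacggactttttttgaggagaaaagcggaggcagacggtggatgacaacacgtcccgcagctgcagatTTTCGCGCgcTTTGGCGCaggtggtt
CCNG2: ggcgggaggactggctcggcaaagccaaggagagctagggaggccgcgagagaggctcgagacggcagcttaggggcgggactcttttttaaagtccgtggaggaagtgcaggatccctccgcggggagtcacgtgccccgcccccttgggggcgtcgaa

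In MCM6 the letters TTTGGCGC, at 152 to 145 and at 90 to 83 bases before the start, each overlap a match of TTTCGCGC on the other strand. In DTL the match ends 1 base before the start. Over the 250 bases before the start, the E2F letters were found in 6 of 8 matched promoters of rule genes (75%), in 5 of the 42 matched promoters of genes called higher outside the rule (11.9%; CDC25A, CDCA5, DTL, RBL1 and RFC3) and in 0 of the 11 matched promoters of genes called lower. The background was 286 of 5894 tested genes with a promoter entry (4.85%) and 761 of 27305 promoters of the whole table (2.79%). The letters CCAAT, on either strand, were in 45.2% of the promoters of genes called higher outside the rule, against 35.2% of those of tested genes. They were in 33.0% of the whole table and 36.4% of genes called lower. The letters TTTGAA or TTCGAA, a core of the element bound by late cell-cycle repressors, were in 14.3% and 9.87%. They were in 14.6% of the whole table and 18.2% of genes called lower, so the genes called higher were not above either. These are counts of letters and not of bound sites.

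The S-phase and mitotic sums placed the 174 members on a continuum and not in a separate cloud, which the plot of both sums shows. The S-phase genes took a median of 0.156% of a member's human UMIs, with a range of 0.101% to 0.419%, from a median of 21.5 S-phase UMIs in a median of 13537 human UMIs. Just inside the limit stood a combination part at 0.101% (11 of 10895 UMIs), and just outside it an agrimoniin part at 0.0998% (5 of 5009 UMIs). Below 0.12% lay 35 members, and 43 parts under the mitotic limit lay between 0.08% and 0.1%. So membership near the limit rested on a few UMIs, and 11 members had fewer than 10 S-phase UMIs. On the mitotic side, 28 members lay at 0.12% or more and 6 had no mitotic UMI. Of the 159 mitotic parts, 86 also passed the S-phase limit.

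**Figure D1:**
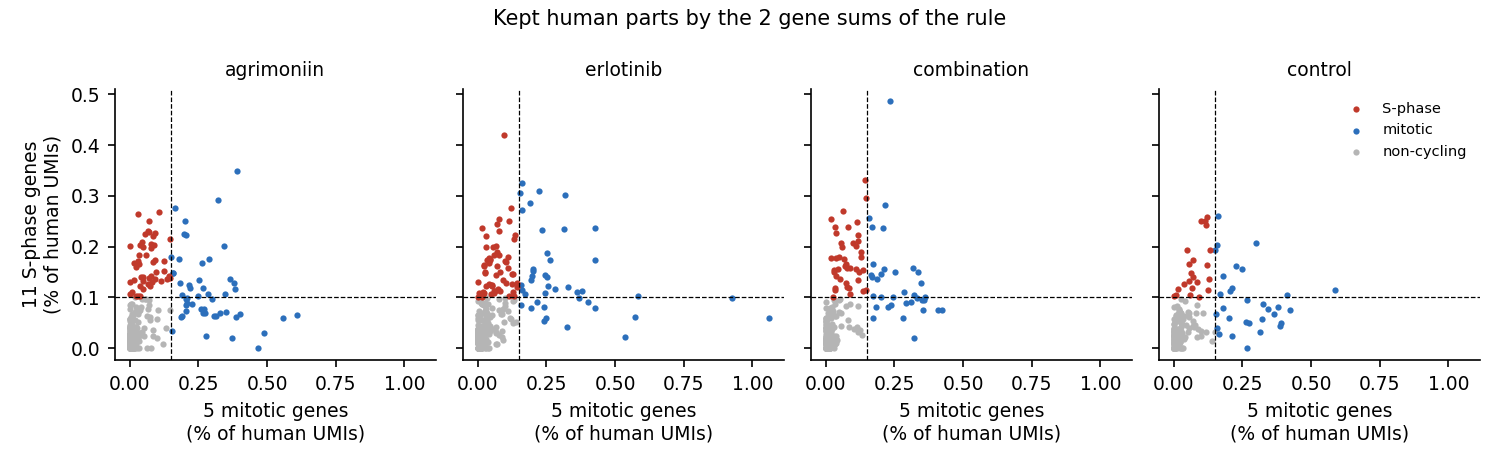
Share of human UMIs from the 5 mitotic genes (x axis, %) and from the 11 S-phase genes (y axis, %) for each kept human part, 1 panel per library, with the limits of 0.15% and 0.1% as dashed lines. S-phase parts (red) sit above the horizontal line and left of the vertical one, with no gap to the non-cycling (grey) or mitotic (blue) parts.

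The share of kept human parts in S phase was 17.3% in the agrimoniin library (95% exact Clopper-Pearson interval 13.1% to 22.2%), 20.5% in the erlotinib library (16.1% to 25.6%), 17.6% in the combination library (13.0% to 22.9%) and 11.4% in the control library (7.28% to 16.7%). The control share was the lowest of the 4. All intervals of the treated libraries overlapped the control interval, which is no test of a difference between treatments. Thinned to 3000 human UMIs per part, the shares were 21.6%, 26.1%, 18.4% and 13.5% in the same order of libraries, and the control library stayed lowest. It was also lowest at an S-phase limit of 0.05%, at which the shares were 30.0%, 37.3%, 30.2% and 26.9%, and at 0.2%, at which they were 4.95%, 3.77%, 5.31% and 2.07%. The mitotic share, in contrast, was 18.0%, 14.4%, 14.3% and 16.1%, so the control library stood between the others. How much of these differences is between tumours of 1 treatment was not measured.

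**Figure D2:**
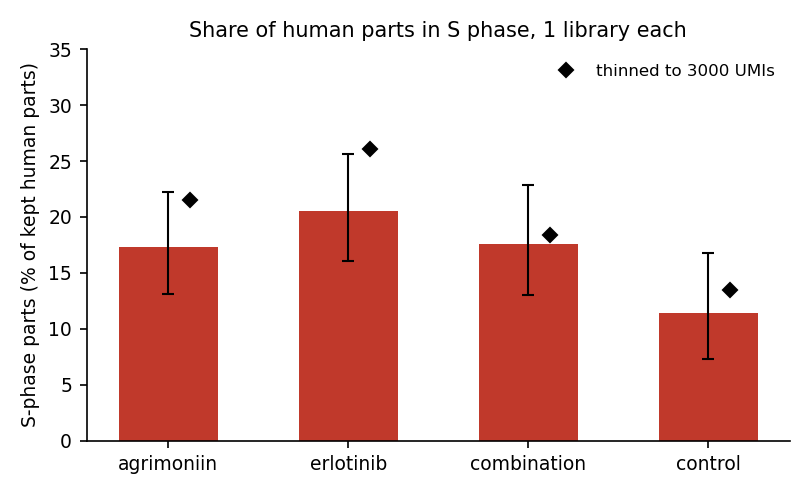
Share of kept human parts that were S-phase parts (y axis, %) in each library. Bars are all UMIs with exact 95% intervals for counting error, and diamonds are the shares after thinning to 3000 human UMIs per part. The control bar is the lowest at 11.4%, against 17.3% to 20.5% in the treated libraries.

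Depth and host RNA moved a little with membership. S-phase parts had median human UMIs of 13775, 13850, 13526 and 12180.5 in the agrimoniin, erlotinib, combination and control libraries, against 12424.5, 11400, 11560 and 11586 in the other human parts of the same libraries. They were deeper in 4 of 4 libraries. Every kept barcode also held at least 1372 mouse UMIs, and the median mouse UMIs beside an S-phase part were 3375, 3436.5, 2404 and 4065, against 3845.5, 4037, 3124.5 and 4878 beside the other parts. Median mitochondrial shares were 10.1%, 9.08%, 9.75% and 10.3% in S-phase parts and 9.36%, 8.97%, 8.97% and 10.1% in the others. No barcode sequence was shared between libraries, out of 1056 barcodes with totals of 3656549 to 5301915 UMIs per library. The part of depth in the results below was not tested.

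Most host cell markers had no human UMIs in S-phase parts. Of 16 human genes whose mouse counterparts mark host leukocytes, fibroblasts or endothelium, 11 had no UMI in any S-phase part, among them PTPRC, CD14, LYZ, C1QA, CSF1R, VWF and CDH5. COL1A1 was an exception, at 5042 ± 1134 CPM in S-phase parts and 6343 ± 393 CPM in other parts (CPM, UMIs summed over parts with every total of human UMIs scaled alike; SD, n = 4 libraries). Mouse UMIs were also fewer beside S-phase parts, as given above, and whether mouse reads entered human COL1A1 was not tested. The keratins KRT8 and KRT18, of simple epithelium, stood at 29.7 ± 2.13 and 63.0 ± 8.02 CPM in S-phase parts, and EPCAM at 27.7 ± 4.56 CPM. KRT7 was near 0, at 0.886 ± 1.77 CPM. The 6 marker genes of S phase, all part of the rule, were higher in S-phase parts in 4 of 4 libraries.

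PCNA, the sliding clamp that holds polymerases on DNA, was at 232, 289, 318 and 308 CPM in S-phase parts of the agrimoniin, erlotinib, combination and control libraries, against 90.4, 102, 77.4 and 65.0 CPM in the other human parts. MCM4, a helicase subunit, was at 207, 157, 154 and 142 CPM, against 44.9, 51.9, 43.3 and 43.5 CPM. MCM6, of the same ring, was at 114, 105, 79.5 and 56.7 CPM, against 30.4, 27.8, 24.9 and 30.4 CPM. For each of these genes the lowest S-phase value lay above the highest value of the other parts. UHRF1, which brings the maintenance methyltransferase to new DNA, averaged 38.9 ± 6.49 CPM in S-phase parts and 11.9 ± 3.16 CPM in other parts. CLSPN, a fork protein needed to switch on the checkpoint kinase CHEK1, averaged 138 ± 25.7 and 41.8 ± 9.98 CPM, and RRM2, the regulated subunit of ribonucleotide reductase, 62.0 ± 13.0 and 19.5 ± 4.92 CPM. The 11 genes together reached 1643 ± 49.7 CPM in S-phase parts, 1216 ± 157 CPM in mitotic parts and 318 ± 28.8 CPM in non-cycling parts. The rule chose parts by these UMIs, so the values describe the members.

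The 11 genes split by how far they also marked mitotic parts. TYMS, which makes thymidylate, averaged 412 CPM in S-phase and 412 CPM in mitotic parts, and RRM2 62.0 and 66.2 CPM, against 58.5 and 6.0 CPM in non-cycling parts. MCM5 averaged 35.3 CPM in S-phase parts and 13.0 CPM in mitotic parts, MCM6 88.9 and 39.4 CPM, and GINS2, a helicase activator, 30.4 and 13.2 CPM. The rule used all 11 genes, so these levels are a description with no test. When members were chosen on a random fraction of 0.5 of each part's UMIs and measured on the rest, 167 parts were chosen, 148 of them also members, and the 11 genes summed to 1579 ± 85.2 CPM in them and 540 ± 76.4 CPM in the other parts. The ratio was 2.92, against 3.16 when the same UMIs chose and measured, and each of the 11 genes was higher in 4 of 4 libraries.

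Outside the 16 genes of the rule, 7133 human genes had a mean of at least 20 CPM over the 8 sums (S-phase and other parts of 4 libraries). A gene was called when its ratio of CPM with 10 CPM added passed 1.5-fold the same way in all 4 libraries. By this rule 52 genes were higher (0.729%) and 16 lower (0.224%) in S-phase parts. With no limit on the size of the ratio, 1097 genes were above 0 in 4 of 4 libraries (15.4%) and 1367 below 0 (19.2%). Parts were picked by their human RNA, so these calls carry no test, and a gene that is low in other parts could pass the minimum of 20 CPM only by being high in S-phase parts. Of the 52, 33 were among the 103 tested genes of 7 replication lists, 1 was in the list of G2 and mitosis genes, and 18 were in no list. The 7 lists hold 201 genes, of which 71 are histone genes. The median log2 ratio of the 103 tested genes was 0.69, and that of all tested genes was −0.04.

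**Figure D3:**
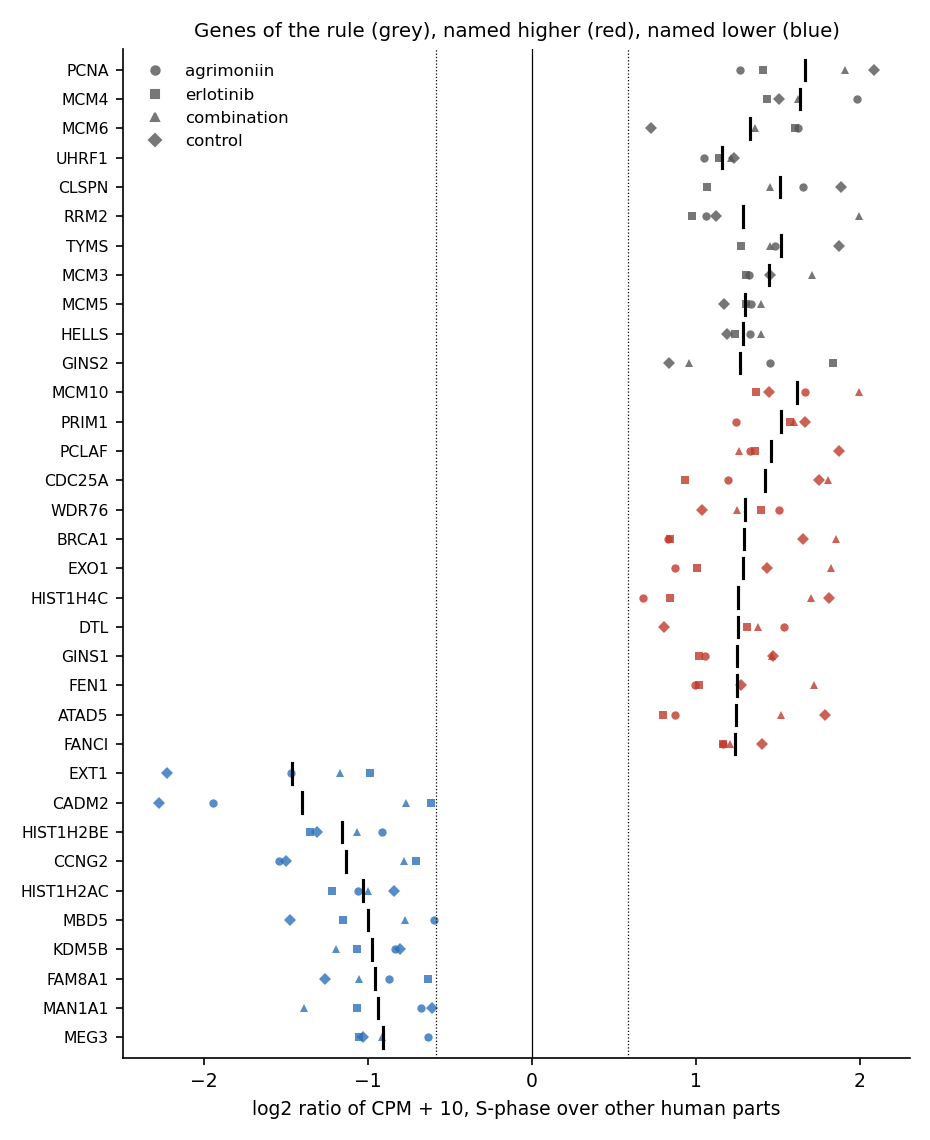
Log2 ratio of CPM + 10, S-phase over other human parts, for the 11 S-phase genes of the rule (grey), the reported genes among the 15 named as called higher (red) and the 10 called lower (blue). Each symbol is 1 library, black bars are means over 4 libraries, and dotted lines mark 1.5-fold. All 4 symbols of each red gene lie right of the right dotted line, and all 4 of each blue gene left of the left one.

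Among genes of origin licensing and initiation, 6 of 10 tested were called higher and 0 lower, with a median log2 ratio of 1.03. The 17 genes of the list summed to 679 ± 35.5 CPM in S-phase parts, 609 ± 46.3 CPM in mitotic parts and 199 ± 29.1 CPM in non-cycling parts. MCM10 (chr10:13161554-13211104), which helps convert the loaded helicase into a moving one, was at 73.1, 60.1, 69.8 and 56.7 CPM in S-phase parts of the agrimoniin, erlotinib, combination and control libraries, against 16.2, 17.2, 10.0 and 14.5 CPM in other parts. Its log2 ratio of 1.62 ± 0.28 was the highest of the called genes outside the rule. CDC6, which loads the MCM ring, was at 41.4, 34.6, 40.6 and 39.0 CPM, against 10.8, 11.3, 12.4 and 10.3 CPM, so neither group varied much between treatments. GINS1, MCM2, the licensing inhibitor GMNN and WDHD1 were the others called higher.

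Polymerase and fork genes followed, with 6 of 20 tested called higher, 0 lower and a median log2 ratio of 0.73. The list summed to 1401 ± 52.4 CPM in S-phase parts, 1162 ± 68.3 CPM in mitotic parts and 619 ± 11.3 CPM in non-cycling parts. PRIM1, the catalytic subunit of primase, was at 40.0, 57.7, 47.1 and 60.3 CPM in S-phase parts, against 11.1, 12.7, 8.82 and 12.2 CPM in other parts (log2 ratio 1.52 ± 0.19). FEN1, which trims Okazaki fragments, averaged 85.7 ± 21.3 and 29.7 ± 5.09 CPM. The clamp loader subunits RFC3, RFC4 and RFC5, and ATAD5, which unloads the clamp, were also called higher. PCLAF, a PCNA partner that stood in no list, was at 134, 129, 131 and 238 CPM, against 47.2, 44.3, 48.9 and 57.5 CPM, and the control library held its highest S-phase value. In mitotic parts PCLAF was at 125, 129, 130 and 158 CPM.

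Nucleotide supply genes differed less: 2 of 18 tested were called higher, RRM1 and DUT, with a list median of 0.47. RRM1, the large subunit of ribonucleotide reductase, was at 178, 207, 174 and 234 CPM in S-phase parts, against 75.2, 93.5, 80.6 and 77.2 CPM in other parts. DUT, which removes dUTP, averaged 435 ± 32.7 and 251 ± 16.8 CPM. UNG, the uracil-DNA glycosylase, stood in no list and averaged 55.4 ± 15.9 and 23.6 ± 3.47 CPM.

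In chromatin copying 3 of 12 tested genes were called higher, with a median of 0.55: DNMT1, the maintenance methyltransferase, at 190 ± 6.79 and 104 ± 11.9 CPM, ATAD2 and the histone variant gene H2AFZ. These 3 were higher still in mitotic parts, where DNMT1 averaged 210 CPM, and the list summed to 2392 ± 174 CPM in S-phase parts, 2615 ± 55.8 CPM in mitotic parts and 1200 ± 87.4 CPM in non-cycling parts. Of 71 replication-dependent histone genes only 4 could be tested, and they split. HIST1H4C (chr6:26103876-26104310) was at 601, 627, 938 and 968 CPM in S-phase parts, against 372, 345, 281 and 268 CPM in other parts, and at 872 CPM on average in mitotic parts. HIST1H2AC was lower, at 33.1, 30.0, 34.1 and 31.9 CPM, against 79.9, 83.2, 78.2 and 65.0 CPM, and so was HIST1H2BE, at 10.3 ± 2.75 and 35.1 ± 4.81 CPM. HIST1H2BD had 27.8 ± 9.82 and 65.8 ± 5.10 CPM and was not called. Most messages of this family end in a stem-loop and carry no poly(A) tail, and the labels give poly(A) RNA as the molecule, so these genes are no measure of total histone RNA. The level of HIST1H4C in S-phase parts separated the combination and control libraries from the single-drug libraries, while the opposite order was seen in other parts.

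Checkpoint and repair genes had 9 of 27 tested called higher, 0 lower, and a median of 0.76. Their sum was 2774 ± 214 CPM in S-phase parts, 2641 ± 66.6 CPM in mitotic parts and 1543 ± 113 CPM in non-cycling parts. BRCA1, a tumour suppressor of homologous recombination, was at 46.9, 47.4, 82.8 and 56.7 CPM in S-phase parts, against 21.9, 22.0, 15.6 and 11.2 CPM in other parts. CHEK1, the kinase that restrains origin firing, was at 148, 127, 125 and 135 CPM, against 70.8, 75.3, 62.2 and 68.7 CPM. In mitotic parts BRCA1 was at 59.8, 50.6, 35.5 and 29.7 CPM, above its S-phase value in the agrimoniin and erlotinib libraries. The nuclease EXO1, FANCI, UBE2T and the helicase BLM were also called.

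Of 12 tested E2F factors, late G1 and S cyclins and partners, 6 were called higher, with a median of 0.81. The list summed to 926 ± 52.1 CPM in S-phase parts, 908 ± 26.9 CPM in mitotic parts and 375 ± 19.8 CPM in non-cycling parts, so S-phase and mitotic parts differed by less than the spread between libraries. CDC25A, the phosphatase that activates CDK2, was at 27.6, 28.9, 39.0 and 42.5 CPM in S-phase parts, against 6.41, 10.3, 4.01 and 5.61 CPM in other parts, and its promoter with 1 E2F match is shown above. DTL, which marks CDT1 for destruction on loaded PCNA, averaged 70.1 ± 15.3 and 23.2 ± 3.11 CPM. CDK2 was at 82.7, 75.1, 79.5 and 78.0 CPM, against 36.8, 38.8, 34.9 and 27.1 CPM. The repressor E2F7, the pocket protein gene RBL1 and SKP2 completed the 6. CCNE2 and E2F1 fell under the minimum level, with means of 29.3 and 4.69 CPM for CCNE2 and 14.6 and 3.07 CPM for E2F1 in S-phase and other parts.

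The 18 genes called higher in no list also included WDR76, at 64.0 CPM in S-phase, 19.7 CPM in other and 36.1 CPM in mitotic parts. CDCA5, which protects cohesin on copied DNA, was at 77.5 ± 12.1 CPM in S-phase and 30.5 ± 3.17 CPM in other parts, and at 89.8 CPM in mitotic parts. The 9 tested cohesin genes had a median log2 ratio of −0.06, with none called. ZWINT averaged 96.7 CPM in S-phase and 103 CPM in mitotic parts.

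**Figure D4:**
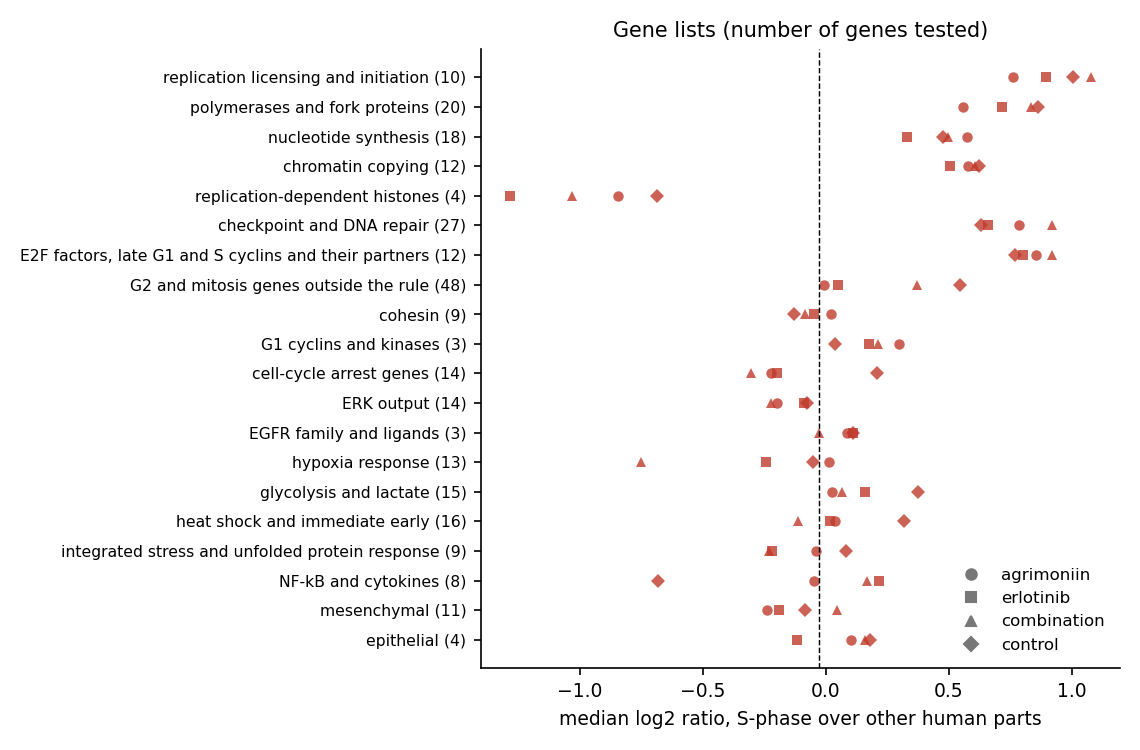
Median log2 ratio of CPM + 10, S-phase over other human parts, over the tested genes of each list (number of genes in brackets), 1 symbol per library. The dashed line is the mean over libraries of the median of all tested genes. The licensing list has symbols from 0.76 to 1.08, and the G2 and mitosis list from −0.01 to 0.54.

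Genes of G2 and mitosis put S-phase parts between the non-cycling and the mitotic parts. The 54 such genes outside the rule summed to 5007 ± 603 CPM in S-phase parts, 11907 ± 725 CPM in mitotic parts and 2061 ± 209 CPM in non-cycling parts. Against all other parts the median log2 ratio of the 48 tested was 0.23 and 1 was called higher, MAD2L1 of the spindle checkpoint, at 74.4, 68.1, 73.0 and 103 CPM in S-phase parts and 36.4, 36.8, 30.9 and 25.7 CPM in other parts. Against non-cycling parts alone the median was 1.28. CCNA2, the cyclin of S phase and G2, averaged 38.4 ± 14.4 CPM in S-phase, 134 CPM in mitotic and 6.17 CPM in non-cycling parts. A mitotic share of 0.05% or more was found in 111 of the 174 members and in 80 of the 680 non-cycling parts.

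Within the 174 members, the share of UMIs from the licensing and E2F lists, without CCNA2, had a Pearson correlation of 0.55 and a Spearman correlation of 0.52 with the share from the 11 rule genes. The share from G2 and mitosis genes outside the rule had correlations of 0.66 and 0.65 with the 5 mitotic genes, and 0.17 and 0.23 with the 11 S-phase genes. Within libraries that last Pearson correlation ran between 0.0255 in the combination library and 0.388 in the control library, while the one with the 5 mitotic genes ran between 0.579 and 0.774. The 11-gene share had a correlation of −0.07 with human UMIs. These describe parts that share 4 libraries and have few UMIs per sum, and they carry no test.

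Of the 16 genes called lower, 2 were histone genes, 1 was an arrest gene and the rest stood in no list. Several were as low in mitotic parts: CADM2 averaged 33.6 CPM in S-phase, 24.4 CPM in mitotic and 109 CPM in non-cycling parts, HMOX1 27.2, 18.9 and 67.2 CPM, and HIST1H2AC 32.3, 33.0 and 89.2 CPM. EXT1 and KDM5B were lower in S-phase than in mitotic parts, at 71.7 and 139 CPM for EXT1 and 102 and 178 CPM for KDM5B. EXT1, which builds heparan sulfate, had the lowest log2 ratio at −1.46 ± 0.55, with 67.5, 90.1, 101 and 28.4 CPM in S-phase parts and 204, 188, 238 and 169 CPM in other parts. KDM5B, a demethylase of histone H3 lysine 4, was steadier, with 113, 91.2, 90.9 and 113 CPM, against 209, 202, 220 and 205 CPM. CCNG2, a cyclin of cells leaving the cycle, had 4.14, 13.9, 19.5 and 7.09 CPM, against 31.0, 28.9, 40.5 and 38.3 CPM. Its values rest on 29 UMIs over all S-phase parts, against 359 in the other parts. EXT1, KDM5B and CCNG2 are among the 16 called lower, which were 0.224% of the tested genes outside the rule. The cell adhesion gene CADM2, MBD5, FAM8A1, the mannosidase MAN1A1 and the noncoding MEG3 were the other named ones. The haem oxygenase HMOX1, at 27.2 ± 12.2 and 56.7 ± 29.4 CPM, was called as well, and 16.1% of its S-phase UMIs came from 1 part.

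Among lists tied neither to replication nor to G2 and mitosis, 1 tested gene was called in S-phase over other parts: CCNG2, of 14 tested arrest genes with a median log2 ratio of −0.15. The S-phase level of CCNG2 rests on 29 UMIs. None of the 14 ERK output, 3 EGFR family, 13 hypoxia, 15 glycolysis, 16 heat shock and immediate early, 9 unfolded protein response, 8 NF-kB, 11 mesenchymal and 4 epithelial genes tested was called, and their medians lay between −0.25 and 0.15. EGFR itself was at 168, 158, 157 and 167 CPM in S-phase parts and 158, 191, 161 and 169 CPM in other parts, with overlapping groups. VEGFA, a secreted hypoxia gene, was lower in 4 of 4 libraries, at 105 ± 32.2 and 176 ± 13.3 CPM, and was not called. LDHA, the lactate dehydrogenase of glycolysis, was higher in 4 of 4, at 919, 956, 807 and 911 CPM, against 760, 855, 771 and 702 CPM, a log2 ratio of 0.22 ± 0.13.

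Within S-phase parts, treated libraries were set against the control library by the ratio of summed CPM with an exact 95% interval, and a gene was called at 1.5-fold or more with an interval that leaves out 1 and a mean of at least 50 CPM. Agrimoniin over control had 353 called of 3975 tested (8.88%), 164 of them higher (4.13%) and 189 lower (4.75%). Erlotinib over control had 352 of 3953 (8.9%), 137 higher (3.47%) and 215 lower (5.44%), and the combination over control 427 of 3967 (10.8%), 177 higher (4.46%) and 250 lower (6.3%). On counts simulated with counting error and 200 genes changed 3-fold, agrimoniin over control called 117 unchanged genes, with 3905 genes tested. The changed genes also shifted the CPM of the unchanged ones, so the 117 do not come from counting error alone. All 3 comparisons share the control library with its 22 parts, so a single control part can enter every one of them. Of the 48 named ratios, 25 were still called and 44 still had an interval leaving out 1 when the part with most UMIs of the gene was left out of each library, an alternative chosen after seeing the data.

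The sum of the 11 S-phase genes differed little with treatment, which the rule partly fixes. The 11-gene sum was 1.03, 1.02 and 1.07 times the control value for agrimoniin, erlotinib and the combination. The rule chose the parts by UMIs of these 11 genes, so calls of single genes among them are a description with no test. MCM6 was called higher with agrimoniin, at 2.02 (1.17 to 3.69), and with erlotinib, at 1.85 (1.08 to 3.38). Both MCM6 ratios rest on 16 control UMIs, against 83 and 91. CLSPN was called lower with the combination, at 0.64 (0.44 to 0.96). None of the others among the 8 tested S-phase genes of the rule was called against control. GINS2, UHRF1 and MCM5 fell under the minimum of 50 CPM and could not be called. The chromatin copying sum was 0.86, 0.93 and 1.00 times control in the same order, and the checkpoint and repair sum 0.99, 0.84 and 0.93. The polymerase and fork list had 0 genes called higher in all 3 comparisons and 2, 1 and 0 of 12 tested called lower. Of all tested genes, 4.75%, 5.44% and 6.3% were called lower.

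G2 and mitosis genes outside the rule summed to 4422, 4720 and 5066 CPM in S-phase parts with agrimoniin, erlotinib and the combination, against 5821 CPM in control. The ratios were 0.76 (0.72 to 0.81), 0.81 (0.77 to 0.86) and 0.87 (0.82 to 0.92), and in the other human parts 1.12, 1.17 and 1.03. The rule limits the 5 mitotic genes in S-phase parts and not in the other parts, which hold the mitotic ones, so the classes are not alike in this. Of the tested genes, 7 of 31, 6 of 31 and 1 of 29 were called lower, where 4.75%, 5.44% and 6.3% of all tested genes were, and 0 were called higher. The combination's count lies below that background. HIST1H4C had ratios of 0.62 (0.53 to 0.73), 0.65 (0.56 to 0.75) and 0.97 (0.84 to 1.12), with 21.2% of its control UMIs in 1 part. Combination over agrimoniin was 1.56 (1.38 to 1.77) for HIST1H4C, called higher.

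DUSP6, a phosphatase induced by ERK that switches ERK off again, was at 265 CPM with agrimoniin, 70.5 with erlotinib and 299 with the combination, against 99.3 CPM in control S-phase parts. The ratios to control were 2.67 (1.79 to 4.12), 0.71 (0.45 to 1.15) and 3.01 (2.01 to 4.65). Combination over erlotinib was 4.24 (3.16 to 5.76), and combination over agrimoniin was 1.13 (0.92 to 1.39). The other human parts of the same libraries had 351, 102 and 315 CPM, against 197 CPM in control, so erlotinib was lowest in both classes, while agrimoniin and the combination stood in the opposite order. These DUSP6 calls held without the part with most of its UMIs in each library. ETV5, another ERK-induced gene, was called higher with agrimoniin, at 2.19 (1.23 to 4.20), and had ratios of 1.37 and 1.67 with erlotinib and the combination. Of 12 tested ERK output genes, 2, 0 and 1 were called higher and 2, 2 and 3 lower with agrimoniin, erlotinib and the combination. Of all tested genes, 4.13%, 3.47% and 4.46% were called higher and 4.75%, 5.44% and 6.3% lower. The ERK output sum was below control in each library, with ratios of 0.85 (0.79 to 0.92), 0.84 (0.78 to 0.91) and 0.83 (0.77 to 0.90), unlike DUSP6. EMP1 was called lower with erlotinib, at 0.28 (0.18 to 0.44), and with the combination, at 0.41 (0.26 to 0.64), and 36.4% of its control UMIs came from 1 part. EGFR was at 168, 158 and 157 CPM, against 167 CPM in control, and was not called in any comparison.

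H19, an imprinted noncoding RNA, was at 302, 537 and 899 CPM in S-phase parts of the agrimoniin, erlotinib and combination libraries, against 149 CPM in control. Its ratios were 2.03 (1.45 to 2.89), 3.61 (2.63 to 5.07) and 6.04 (4.41 to 8.47), and the other parts had ratios of 1.25, 2.19 and 1.66. In the combination library 29.2% of its S-phase UMIs came from 1 part, and without that part and its control counterpart the ratio was 6.43. At an S-phase limit of 0.2%, agrimoniin over control turned round, to a log2 ratio of −1.03. FAM126A was called higher with agrimoniin, at 3.89 (1.79 to 10.0), and with the combination, at 5.10 (2.36 to 13.1). No part held over 14.1% of its UMIs in either treated library, and both ratios rest on 7 control UMIs, against 70 and 78.

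**Figure D5:**
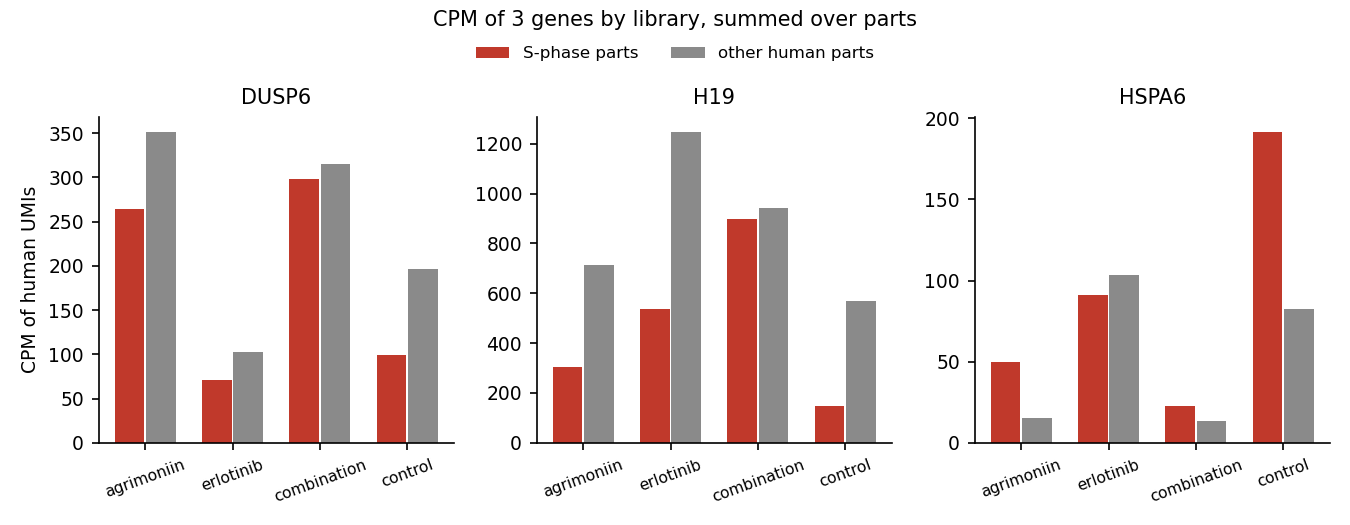
CPM of DUSP6, H19 and HSPA6 (y axes) in S-phase parts (red) and other human parts (grey) of each library, summed over parts, with no replicate. DUSP6 is lowest with erlotinib in both classes, and HSPA6 is highest in control S-phase parts at 191 CPM.

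Heat shock and immediate early genes summed lower in each treated library than in control S-phase parts. HSPA6, a strictly inducible HSP70, was at 49.6, 91.2 and 22.7 CPM with agrimoniin, erlotinib and the combination, against 191 CPM in control, of which 37.0% came from 1 part. The ratios were 0.26 (0.17 to 0.40), 0.48 (0.33 to 0.69) and 0.12 (0.06 to 0.22), and in the other parts 0.18, 1.26 and 0.16. HSPA1A had ratios of 0.55 (0.51 to 0.59), 1.10 (1.04 to 1.17) and 0.60 (0.56 to 0.65). So HSPA1A was near the control level with erlotinib and called lower with agrimoniin and the combination. Of 16 tested heat shock and immediate early genes, 8, 4 and 10 were called lower and 0 higher, and the sums were 17787, 24395 and 18769 CPM, against 27759 CPM in control. The share called lower among all tested genes was 4.75%, 5.44% and 6.3%. With 1 library each, treatment and any difference between tumours or in their dissociation cannot be told apart.

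Hypoxia genes were lower in combination S-phase parts than in any other library's. Their sum was 1361, 1136 and 881 CPM with agrimoniin, erlotinib and the combination, against 1372 CPM in control. The combination ratios were 0.64 (0.56 to 0.73) to control, 0.65 (0.58 to 0.72) to agrimoniin and 0.78 (0.70 to 0.86) to erlotinib, and in the other human parts all 3 were above 1, at 1.07, 1.12 and 1.07. SLC2A1, the glucose transporter, was at 134, 77.4 and 53.6 CPM, against 95.7 CPM, and VEGFA at 134, 83.2 and 71.4 CPM, against 131 CPM. BNIP3, of mitochondrial clearance, was at 152, 143 and 101 CPM, against 248 CPM. Single control parts held 22.2% of the control UMIs of SLC2A1, 48.6% of VEGFA and 30.0% of BNIP3. DDIT4, an inhibitor of mTORC1 in the same list, went the other way, at 124, 126 and 79.5 CPM, against 35.5 CPM in control. The NF-kB list summed to 627, 624 and 706 CPM, against 347 CPM in control. In the other human parts it summed to 680, 542 and 565 CPM, against 566 CPM, with ratios of 1.20, 0.96 and 1.00. Of 3 tested NF-kB genes, 1, 2 and 3 were called higher, where 4.13%, 3.47% and 4.46% of all tested genes were. The anti-apoptotic gene BIRC3 was called higher in all 3 comparisons, with ratios of 2.54 (1.47 to 4.71), 2.56 (1.49 to 4.72) and 2.11 (1.19 to 3.96).

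Against the single drugs, the combination had 320 genes called of 4011 over agrimoniin (7.98%), 142 higher (3.54%) and 178 lower (4.44%), and 252 of 3967 over erlotinib (6.35%), 126 in each direction (3.18%). PCDH9, a protocadherin, was at 281 CPM with the combination, against 63.4 CPM with agrimoniin and 61.2 CPM with erlotinib, with ratios of 4.43 (3.18 to 6.27) and 4.59 (3.35 to 6.36), and other parts had 1.14 and 0.96. STC2, a secreted glycoprotein, was at 30.8 CPM, against 95.1 and 95.9 CPM, and 1 part held 39.1% of its agrimoniin UMIs. AKAP12, a scaffold of protein kinase A, was at 344 CPM with the combination, against 889 CPM with agrimoniin, a ratio of 0.39 (0.33 to 0.45).

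Mouse UMIs of the same barcodes did not enter the rule and could be tested. They compare host RNA captured with S-phase parts and host RNA captured with other human parts. Of 6717 mouse genes tested with edgeR's quasi-likelihood test and the library as a block, 0 had a Benjamini-Hochberg adjusted p under 0.05 (0%), and 242 had an unadjusted p under 0.05 (3.6%). The smallest adjusted p in edgeR was 0.313. Without the erlotinib library 8 genes passed and without the control library 2, and DESeq2 called 0. On simulated counts the edgeR test recovered 22.5% of genes changed 2-fold. Mouse macrophage genes summed to 8597 ± 2319 CPM beside S-phase parts and 8221 ± 1781 CPM beside other parts, and fibroblast genes to 29610 ± 10974 and 32475 ± 3564 CPM, each higher in 2 of 4 libraries. The mouse S-phase genes summed to 502 ± 169 and 396 ± 65.4 CPM and were higher in 2 of 4 libraries. The 4 libraries differ in treatment, so their spread is not that of replicates.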

How the data were processed

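Tumours were dissociated with collagenase and libraries were made from single cells, per the labels' protocols, which name a droplet 3' kit. The authors deposited whole-number UMI counts for every gene and barcode, made with Cell Ranger against hg38 and mm10, per the submitters' processing notes (version: not given in the sources used here). Cell barcodes run to 27 bases, unlike those of that kit, which leaves the platform in doubt. Human and mouse features were counted in the same barcodes and split here by their prefix. Gene symbols are those of the files, some of them older names.

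Parts were kept and classed by the rule given in the report, and UMIs were summed per library and class and scaled to CPM of human UMIs. Log2 ratios used CPM + 10. A gene was called in S-phase over other parts at 1.5-fold or more the same way in 4 of 4 libraries with a mean of at least 20 CPM. Treated ratios had exact conditional binomial 95% intervals and a minimum mean of 50 CPM. Intervals cover counting error only. Mouse UMIs were tested with edgeR 4.0.16 (quasi-likelihood, TMM, library as a block) and DESeq2 1.42.0 in R 4.3.3, with Benjamini-Hochberg adjusted p-values; other steps used Python 3.11.15. On simulated counts with 200 genes changed 3-fold, the contrast of S-phase over other parts recovered 86.0% and called 0 unchanged genes. Simulated with counting error and no spread between parts, agrimoniin over control recovered 82.0% of 200 such genes. It called 117 unchanged ones, with 3905 genes tested, and the changed genes also shifted the CPM of the unchanged ones. The mouse test recovered 22.5% of 200 genes changed 2-fold. No doublet caller was run: every kept barcode held both species, and 0 barcode sequences were shared between libraries.

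The members and gene lists were chosen with earlier results of these data known. Named genes outside the rule were the 15 highest and 10 lowest called ones with a UMI in at least 10% of parts, the 6 highest and 6 lowest per treated comparison with control (3 and 3 against single drugs), up to 4 per list, and DUSP6, EGFR, LDHA and H19; other genes were named for their roles after their values were seen. Promoters came from RefSeq (GRCh38.p14), of which 5894 of the 7148 tested genes had an entry by symbol, and MCM10 coordinates from GENCODE 29. Some named genes are not reported here.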

Additional observations from a re-analysis of the deposited data

Results flagged for a closer look

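Outside the genes of the rule, 48 named ratios, 16 further ratios of DUSP6, EGFR, LDHA and H19 and 105 ratios of list sums (21 lists) were set against the ratio of the same libraries in the other human parts. In 29 of them, 21 of these list sums, the S-phase ratio and the other parts' ratio lay on opposite sides of 1, with both intervals leaving out 1. The 48 named ratios were picked as the most extreme within S-phase parts, which favours a weaker or opposite ratio in the other parts. The other parts hold all the mitotic parts, so the classes are not alike for the G2 and mitosis and histone sums. With 1 library per treatment the differences between the classes were not tested, and the comparisons with control share 1 library.

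DDIT4 had ratios of 3.5 for agrimoniin over control and 3.55 for erlotinib over control in S-phase parts, and 0.68 and 0.82 in other parts. Without the part with most UMIs in each library the S-phase ratios were 4.80 and 4.82. PRDM1 had 5.49 for combination over control and 0.65 in other parts, with 45.0% of its combination UMIs in 1 part. SCG2 had 0.0268 for agrimoniin over control and 1.44 in other parts, with 82.8% of its control UMIs in 1 part. AC010624.5 had 0.0854 for agrimoniin and 0.207 for erlotinib over control, against 1.55 and 2.48 in other parts, with 85.4% of its control UMIs in 1 part; without that part both intervals held 1. HBEGF had 0.216 for agrimoniin over control and 2.06 in other parts, with 51.9% in 1 control part. H19 had 1.67 for combination over erlotinib and 0.757 in other parts, with 29.2% of its combination UMIs in 1 part.

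Among list sums over control, the histone sum had 0.654 for agrimoniin and 0.633 for erlotinib, and the G2 and mitosis sum 0.760 and 0.811. The arrest gene sum had 0.725 for agrimoniin and 0.769 for the combination, and the mesenchymal sum 0.883 and 0.879. The ERK output sum had 0.848 for agrimoniin, and the heat shock sum 0.879 for erlotinib. For the combination over control the hypoxia sum had 0.642 and the unfolded protein response sum 0.751. In the other parts these ratios lay between 1.07 and 1.26.

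Combination over agrimoniin had 0.648 for the hypoxia sum, 0.784 for the unfolded protein response sum, 1.42 for the histone sum, 1.15 for the G2 and mitosis sum and 1.17 for the chromatin copying sum. Combination over erlotinib had 0.775 for the hypoxia sum, 1.46 for the histone sum, 1.07 for the G2 and mitosis sum and 1.08 for the chromatin copying sum.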

How the results depend on the processing

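No paired analysis was possible because each treatment has 1 library, apart from the library block of the mouse test, without which 0 mouse genes were called. Shares of S-phase parts in the agrimoniin, erlotinib, combination and control libraries were 30.0%, 37.3%, 30.2% and 26.9% at a limit of 0.05% and 4.95%, 3.77%, 5.31% and 2.07% at 0.2%. With a mitotic limit of 0.1% the erlotinib and combination shares were 15.1% and 11.8%, thinned to 3000 UMIs the erlotinib share was 26.1%, and where human UMIs made up 75% or more of a barcode the agrimoniin share was 22.8%. The control share was the lowest at the S-phase limits of 0.05%, 0.1% and 0.2%.

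In S-phase over other parts, 35 genes were called lower with a pseudocount of 1, and 32 to 35 without 1 library, against 16. Against non-cycling parts 145 were called higher and 42 lower, and the G2 and mitosis median log2 ratio was 1.28. Without the S-phase part with most UMIs of each gene, an alternative chosen after seeing the data that lowers S-phase values by construction, 33 were higher and 72 lower. The median of the 7 replication lists was 0.78 with a pseudocount of 1, 0.50 with no minimum level, 0.90 against non-cycling parts and 0.55 without the part with most UMIs. Chosen on a fraction of 0.5 of the UMIs, 40 were higher and 23 lower, of which 30 and 8 were shared.

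With no minimum level the treated comparisons called 649 (agrimoniin over control), 672 (erlotinib over control), 709 (combination over control), 696 (combination over agrimoniin) and 651 (combination over erlotinib), and combination over erlotinib called 404 at a limit of 0.2%. At 0.2%, where 4 control parts were left, few of the main calls against control recurred. For agrimoniin they were 16 of 164 higher and 41 of 189 lower. For erlotinib they were 20 of 137 and 43 of 215, and for the combination 24 of 177 and 38 of 250. At a mitochondrial limit of 10% agrimoniin kept 76 and 94, and at 75% or more human UMIs 86 and 93. The mouse test called 24 with no minimum, and 0 to 8 without 1 library. At 0.2% these log2 ratios to control turned round: for agrimoniin C9orf85 at 1.01 and H19 at −1.03; for erlotinib STC1 at −3.24, LAMA5 at −0.92, AC010624.5 at 2.51 and SNAI1 at 0.66; for the combination MYL9 at −0.93, AC010624.5 at 2.82 and EREG at 1.15. Where human UMIs made up 75% or more of a barcode, SCG2 was at 0.24 and AC010624.5 at 0.79 for agrimoniin, and AC010624.5 at 1.97 for erlotinib and 2.04 for the combination. At a mitochondrial limit of 10%, SCG2 was at 0.31 for agrimoniin and HBEGF at 0.19 for erlotinib. C9orf85 was at 0.42 for agrimoniin without the part with most UMIs, an alternative also chosen after seeing the data. The cause of these changes was not tested. Of the remaining single-gene values, 691 kept their direction and moved little and 105 moved.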
